A study of Saccharomyces cerevisiae with 18 samples.

Results

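The 50 genes described here encode proteins that build the ribosome in budding yeast: the proteins of both kinds of small nucleolar ribonucleoprotein (snoRNP), subunits of the small-subunit processome, RNA helicases, and assembly factors of the small (40S) and large (60S) subunits. They were taken by their ORF identifiers from the 7036 features of the count files, and all 50 were found in every library. They are not the whole pathway: 93 other assembly factors are given below as a separate list. All 50 carried enough counts to be tested, with 779 to 16976 reads per gene and library. By sequence comparison none has a near-identical copy among RefSeq R64 coding sequences (at least 95% identity over at least 50% of the coding length). None overlaps another gene of that annotation. The count files also hold 1080 features that were not matched to it, and their overlap with the 50 genes was not tested.

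Poly(A) RNA was sequenced from 18 libraries of asynchronous Saccharomyces cerevisiae in the S288C background, 6 for each of 3 strains. All 3 strains carried NUP60, a gene for a protein of the nuclear basket of the nuclear pore, fused to GFP, so that the control is itself a tagged strain. WT was NUP60-GFP::HIS3(S.kluyveri), K467N was nup60-K467N-GFP::HIS3(S.kluyveri), with asparagine at residue 467, and K467R was nup60-K467R-GFP::HIS3MX6, with arginine there. The marker therefore changes together with the substitution in each comparison with K467R, and the effects of marker and residue cannot be told apart. Cultures were kept at 25 °C in YP medium containing adenine and 2% glucose, were diluted to an OD of 0.1, and were harvested untreated at an OD of 0.6 to 0.7. The series asks about acetylation of lysine 467 and transcription, with asparagine commonly used as a mimic of acetylated lysine and arginine of unacetylated lysine. The labels do not state whether the 6 libraries per strain derive from independent cultures or clones. A p-value here therefore reflects the spread among these samples alone, which may be technical.

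Gene counts ranged from 12395725 to 19093010 per library, and the 50 genes took 1.26 to 1.49% of them. HIS3 lay between 78.5 and 95.8 CPM (reads of a gene relative to the scaled total of its library) in WT, between 71.8 and 87.2 CPM in K467N and between 0 and 0.0710 CPM in K467R, which separates the K467R libraries from the rest as their marker label does. NUP60 was at 84.6 ± 6.50 CPM in WT, 87.6 ± 3.19 CPM in K467N and 89.1 ± 4.20 CPM in K467R (SD, n = 6), but its count does not check a point substitution. Library sizes were scaled by TMM, and libraries are numbered 1 to 6 within a strain, with no order between them. Counts followed the coding length and GC content of genes most strongly in K467R 1 and K467N 2, and to lesser degrees in other libraries. This is described below beside the results it touches.

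Ribosome assembly begins in the nucleolus, where RNA polymerase I makes a long precursor of the ribosomal RNAs. Box C/D snoRNPs guide methylation of the RNA and box H/ACA snoRNPs guide pseudouridylation, while the U3 snoRNP and the UtpA, UtpB and Mpp10 complexes gather on the nascent transcript as the small-subunit processome. Helicases remodel the RNA, and large-subunit factors carry the pre-60S particle towards export through the nuclear pore. In yeast the genes for these proteins are known to form a regulon that rises with growth and falls under stress. Many of their promoters hold a PAC element, bound by Dot6 and Tod6, and an RRPE element, bound by Stb3.

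Promoters were examined for both elements because they are a feature that the choice of genes did not use. The searched letters were GCGATGAG for PAC and AAAAATTT for RRPE, each on both strands, in the 250 bases before the start codon of the RefSeq R64 annotation. RRPE matches on opposite strands overlap where 5 A are followed by 5 T, and these letters do not overlap those of PAC. PAC was found in 27 of 50 promoters (54.0%), against 3.83% of 6007 promoters. RRPE was found in 41 (82.0%), against 13.4%. Both were present in 22 (44.0%, against 2.21%), and at least 1 of them in 46 (92.0%, against 15.0%). The first base of a PAC match lay 77 to 229 bases before the start codon, with a median of 122, and that of an RRPE match 34 to 245 bases, with a median of 138. Promoters of 4 genes that the later results turn on are printed here as the last 150 bases before the start codon, 5′ to 3′ on the strand of the gene, with PAC and RRPE matches in capitals. ROK1 (YGL171W, chromosome VII, plus strand) and UTP10 (YJL109C, chromosome X, minus strand) hold both elements within a few bases of each other. EBP2 (YKL172W, chromosome XI, plus strand) and NHP2 (YDL208W, chromosome IV, plus strand) hold the RRPE letters but not the full PAC letters.
ROK1: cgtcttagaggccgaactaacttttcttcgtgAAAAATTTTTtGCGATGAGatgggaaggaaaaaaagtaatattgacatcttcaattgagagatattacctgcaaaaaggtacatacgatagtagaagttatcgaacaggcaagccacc
UTP10: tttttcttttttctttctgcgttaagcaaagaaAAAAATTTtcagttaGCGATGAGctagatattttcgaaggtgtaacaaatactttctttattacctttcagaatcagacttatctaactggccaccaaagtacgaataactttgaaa
EBP2: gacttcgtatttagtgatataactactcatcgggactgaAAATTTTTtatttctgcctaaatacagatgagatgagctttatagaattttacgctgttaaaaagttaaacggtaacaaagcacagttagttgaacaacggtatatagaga
NHP2: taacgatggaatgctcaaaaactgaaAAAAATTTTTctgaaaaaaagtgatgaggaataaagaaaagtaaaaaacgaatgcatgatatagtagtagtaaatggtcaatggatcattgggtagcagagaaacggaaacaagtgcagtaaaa

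Matches to the full letters were spread unevenly over the roles. None of the 7 snoRNP protein genes held GCGATGAG, and all 7 held AAAAATTT. The 4 promoters with neither were those of RRP9, UTP22, DHR2 and NOC3. A match is a run of letters and not a measured binding site. With shorter cores, GATGAG and AAAATTT, 47 promoters held each and all 50 held at least 1, against 32.1% of all promoters. All 7 snoRNP promoters held GATGAG (17.0% of all promoters), so their lack of PAC holds for the longer letters only. Of the 93 other assembly factors, 49.5% held PAC and 84.9% RRPE. The shares were lower among 16 RNA polymerase I genes (6.25% and 37.5%) and 137 ribosomal protein genes (0.730% and 11.7%). The 27 genes with PAC and the 23 without had median levels of 124 and 108 CPM per kb of coding length. Their median log2 fold changes were 0.01 and 0.03 in K467N against WT and 0.02 and 0.01 in K467R against WT.

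**Figure D1:**
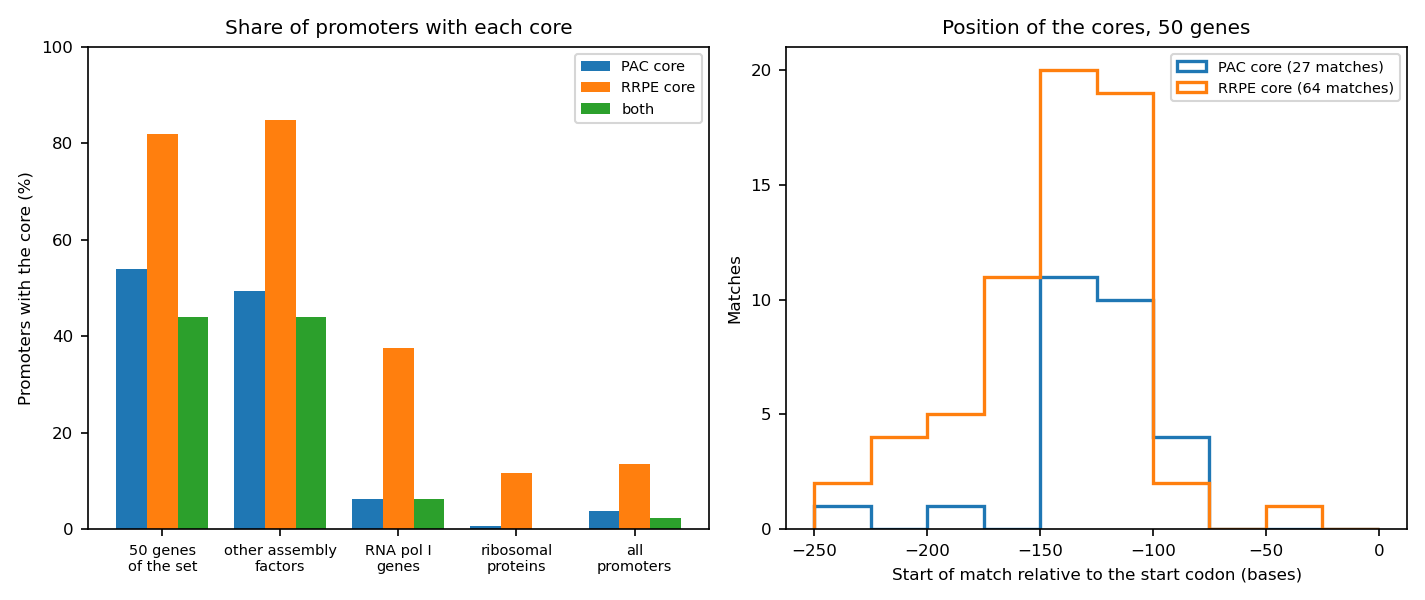
Left, the percentage of promoters (250 bases before the start codon) with the PAC core, the RRPE core or both, for the 50 genes, 3 other gene lists and all promoters. Right, the number of matches in the 50 promoters by the distance of their first base from the start codon in bases; RRPE was present in 82.0% of the 50 promoters and PAC in 54.0%, and most matches of both lie between 100 and 150 bases before the start codon.

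Levels between genes were compared only per length, as the mean CPM over 18 libraries per kb of coding length. On this scale the 50 genes ran from 19.1 CPM per kb for UTP20 to 1589 CPM per kb for NOP10, and 47 of them lay above the median of all genes (41.5 CPM per kb). Their own median was 112 CPM per kb, and the median gene stood at percentile 76.2 of the transcriptome. Of the 5 highest genes on this scale, 4 encode snoRNP proteins. NOP10 (YHR072W-A, 1589 CPM per kb), GAR1 (YHR089C, 680) and NHP2 (764) encode box H/ACA proteins, and NOP1 (YDL014W, 860) encodes the methyltransferase of the box C/D particle. NSR1, a nucleolin-like protein needed for small-subunit rRNA processing, was also among the 5 highest, at 706 CPM per kb. The 5 lowest were UTP20 (19.1), UTP10 (32.4), the helicase genes DHR2 (40.1) and SPB4 (50.4), and UTP22 (54.0). Box H/ACA genes had a median of 722 CPM per kb, box C/D genes 474, 60S assembly factors 188 and UtpA genes 79.6. UTP20 and UTP10 also have the longest coding sequences of the set, 7482 and 5310 bases, and NOP10 the shortest, 177 bases.

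None of the 50 genes passed the test in any of the 3 comparisons (edgeR quasi-likelihood test, Benjamini-Hochberg adjusted p under 0.05 over 5660 genes). The background was as low: 0.0707% of all genes passed in K467N against WT, 0.0707% in K467R against WT and 0.0177% in K467N against K467R, so a count of 0 among 50 is what that share gives and says nothing particular about these genes. Every one of the 50 genes had a 95% interval within 0.5 of 0 on the log2 scale in each comparison, and 44, 40 and 40 of them had one within 0.25. The comparisons share strains, so their values are not independent of each other.

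**Figure D2:**
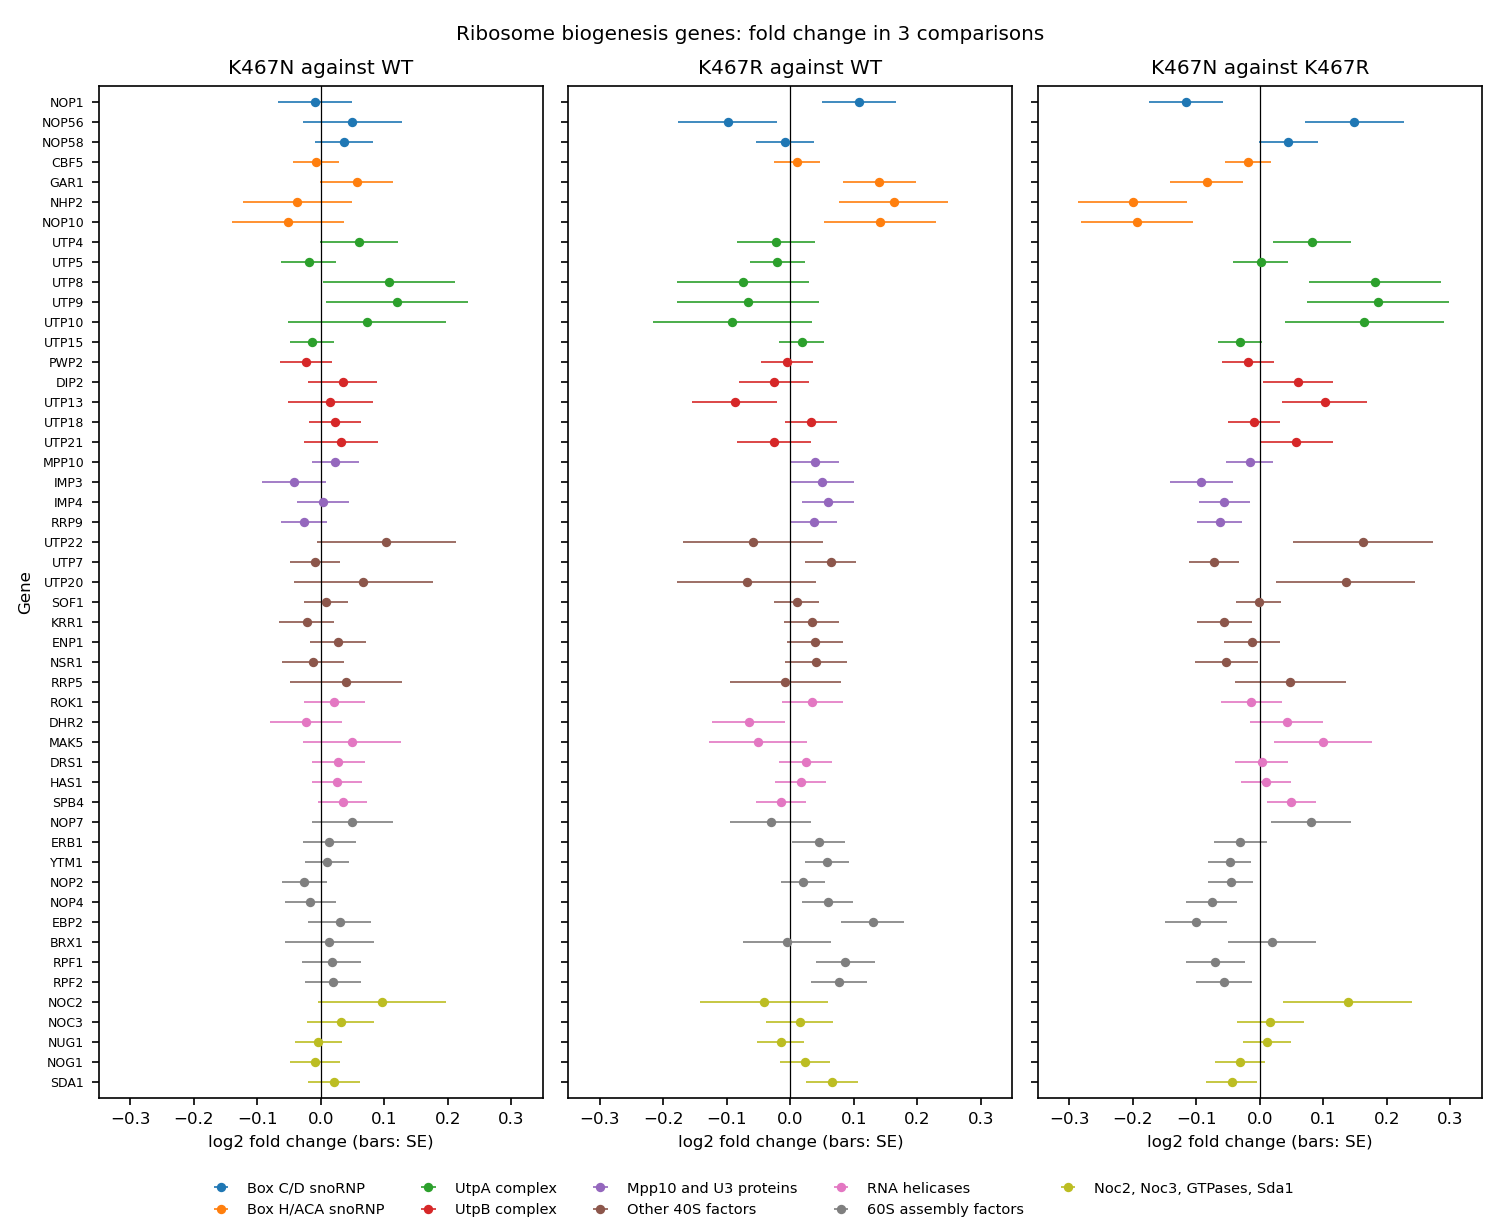
Log2 fold change of each of the 50 genes (points) with its standard error (bars) in the edgeR fit of 18 libraries, coloured by role, for K467N against WT, K467R against WT and K467N against K467R. All values lie between -0.20 and 0.19, and none passed the test.

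K467N against WT asks what the asparagine substitution changed. Across the 50 genes the log2 fold change ran from -0.05 (NOP10) to 0.12 (UTP9), with a median of 0.02 beside 0.0003 for all genes tested. It was above 0 for 33 of 50 genes, where 50.2% of all genes were above 0. No gene had an unadjusted p under 0.05 (1.15% of all genes), and no gene had K467N and WT libraries that did not overlap (0.124% of all genes). The 5 genes of smallest p were UTP9, UTP8, GAR1, UTP4 and NOC2. UTP9 (YHR196W), a subunit of the UtpA complex that binds the growing precursor first, had a lowest, median and highest level of 114, 136 and 148 CPM in WT and 115, 149 and 169 CPM in K467N. The K467N libraries reached higher, but the lower ends of both groups coincided. Its log2 fold change was 0.12 ± 0.11 (SE), with an adjusted p of 0.999 in edgeR's quasi-likelihood test. UTP8, from the same complex, had a log2 fold change of 0.11 ± 0.10, UTP4 0.06 ± 0.06, and NOC2, whose protein pairs with Noc1 or Noc3 on pre-60S particles, 0.10 ± 0.10.

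By role, K467N against WT differed little. For the box C/D genes the median log2 fold change was 0.04, from NOP1 at -0.01 to NOP56, a core protein of the particle, at 0.05. The box H/ACA genes had a median of -0.02, which was above 0 in 5 of 29 alternative analyses, the one that removes trends in length and GC content among them. They ran from NOP10 at -0.05 to GAR1 at 0.06. The UtpA genes had a median of 0.07, with UTP5 lowest among them at -0.02. That median was 0.01 with the trends in length and GC content removed and 0.01 without K467R 1 and K467N 2. In the UtpB complex the median was 0.02, from PWP2 (-0.02) to DIP2 (0.03). The Mpp10 complex and the U3 protein Rrp9 gave values from -0.04 (IMP3) to 0.02 (MPP10). Other 40S factors ran from KRR1 (-0.02) to UTP22 (0.10), helicases from DHR2 (-0.02) to MAK5 (0.05), and 60S assembly factors from NOP2, the methyltransferase of large-subunit rRNA, at -0.03 to NOP7 at 0.05. NOG1, a GTPase of the pre-60S particle, was at -0.01 and NOC2 at 0.10, the ends of the last group.

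K467R against WT asks the same of the arginine substitution. The log2 fold change of the 50 genes ran from -0.10 (NOP56) to 0.16 (NHP2), with a median of 0.02 beside -0.01 for all genes. It lay above 0 for 29 of 50 genes (46.9% of all genes), and 2 genes, EBP2 and GAR1, had an unadjusted p under 0.05, where 5.67% of all genes did. In no gene were the libraries of both strains apart (0.283% of all genes). EBP2, a 60S assembly factor needed for processing of the large-subunit rRNA, had a lowest, median and highest level of 311, 317 and 343 CPM in WT and 319, 355 and 375 CPM in K467R. All 6 K467R libraries lay above the WT median and 4 above the highest WT library. WT 4 alone of the WT libraries reached into the K467R range. Its log2 fold change was 0.13 ± 0.05 (unadjusted p = 0.0157, adjusted p = 0.747 in edgeR's quasi-likelihood test over all genes).

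The box H/ACA genes had a median of 0.14 in K467R against WT, and it stayed above 0 in all 29 alternatives (0.04 to 0.17). All 4 lay above 0. GAR1 had 373, 401 and 426 CPM in WT and 415, 433 and 500 CPM in K467R as lowest, median and highest level. Of the K467R libraries 4 lay above every WT library, so the groups overlapped by a small margin, and the log2 fold change was 0.14 ± 0.06 (unadjusted p = 0.0235, adjusted p = 0.747 in edgeR). NHP2 lay at 306, 363 and 377 CPM in WT and at 334, 387 and 476 CPM in K467R, where K467R 1 was highest. The log2 fold change was 0.16 ± 0.09. NOP10 was at 0.14 ± 0.09 and CBF5, the pseudouridine synthase itself, at 0.01 ± 0.04. In the box C/D particle NOP1 was at 0.11 ± 0.06 and NOP56 at -0.10 ± 0.08. Without K467R 1 NOP56 was at -0.02 ± 0.05, and with the trends in length and GC content removed NOP1 was at 0.04 ± 0.05 and NOP56 at -0.04 ± 0.04. The box C/D median was -0.01 and lay above 0 in 8 of 29 alternatives.

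Processome genes had smaller values in K467R against WT. The UtpA median was -0.04, which was above 0 in 2 of 29 alternatives (with 2 surrogate variables, and with trends in length and GC content removed), and values ran from UTP10 (-0.09) to UTP15 (0.02). UtpB ran from UTP13 (-0.09) to UTP18 (0.03). The Mpp10 and U3 proteins were all above 0, from RRP9 at 0.04 to IMP4 at 0.06, and their median of 0.04 stayed above 0 in all 29 alternatives. Other 40S factors ran from UTP20 (-0.07) to UTP7 (0.06). Among the helicases DHR2, which acts on the small subunit, was lowest at -0.07 and ROK1 highest at 0.03. The 60S assembly factors had a median of 0.06, from NOP7 (-0.03) to EBP2 (0.13), and it stayed above 0 in all 29. NOC2 (-0.04) and SDA1, needed for export of the large subunit (0.07), were the ends of the last group. The medians of UtpB, the helicases and the last group changed sign in 4, 9 and 2 of 29 alternatives. RPF1, at 0.09 ± 0.05, completes the 5 of smallest p with EBP2, GAR1, NHP2 and NOP1. RPF1 and GAR1 are convergent neighbours on chromosome VIII, 298 bases apart, the only pair of the 50 genes next to each other.

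The comparison of K467N with K467R, in which the marker also differs, gave the widest range, from -0.20 (NHP2) to 0.19 (UTP9). The median was -0.01 beside 0.01 for all genes, and 23 of 50 genes lay above 0 (52.5% of all genes). NHP2 and NOP10 had an unadjusted p under 0.05, a share of 4% where 11.2% of all genes did, and no gene had libraries apart (0.283% of all genes). NHP2 reached 278, 348 and 389 CPM in K467N, against 334, 387 and 476 CPM in K467R. The log2 fold change was -0.20 ± 0.09 (unadjusted p = 0.0297, adjusted p = 0.408 in edgeR). NOP10 had 214, 278 and 308 CPM in K467N and 279, 304 and 333 CPM in K467R, a log2 fold change of -0.19 ± 0.09 (unadjusted p = 0.0406, adjusted p = 0.408 in edgeR). For both genes K467N 2 was the lowest library and K467R 1 the highest, and the groups overlapped between them. With the trends of each library in coding length and GC content removed, NOP10 was at -0.004 ± 0.02 (unadjusted p = 0.858 in edgeR) and NHP2 at -0.09 ± 0.04 (unadjusted p = 0.0224 in edgeR).

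The other genes of smallest p here were EBP2 (-0.10 ± 0.05), NOP1 (-0.12 ± 0.06) and NOP56 (0.15 ± 0.08). With the trends in length and GC content removed they were at -0.12 ± 0.05, -0.02 ± 0.05 and 0.06 ± 0.04. By role the box H/ACA median was -0.14 (below 0 in all 29 alternatives, and -0.02 with the trends removed), with CBF5 nearest to 0 at -0.02. The UtpA median was 0.12 (below 0 with 2 surrogate variables), from UTP15 at -0.03 to UTP9 at 0.19. The UtpB genes ran from PWP2 (-0.02) to UTP13 (0.10), and the Mpp10 and U3 genes from IMP3 (-0.09) to MPP10 (-0.02). Other 40S factors ran from UTP7 (-0.07) to UTP22 (0.16), helicases from ROK1 (-0.01) to MAK5 (0.10), 60S assembly factors from EBP2 to NOP7 (0.08), and the last group from SDA1 (-0.04) to NOC2 (0.14). The median changed sign in 4 of 29 alternatives for UtpB, 3 for other 40S factors, 3 for helicases and 8 for the last group. With the trends removed the high ends UTP13, UTP22, MAK5, NOP7 and NOC2 were at 0.01, 0.03, -0.001, -0.02 and 0.02. The low ends UTP7, ROK1 and SDA1 were then at -0.09, -0.12 and -0.10.

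Levels of the roles also differed between single libraries of 1 strain. For each library the deviation of a gene was its log2 CPM minus its mean over 18 libraries. The median deviation of the 50 genes ran from -0.09 in WT 5, where 3 of 50 genes were above 0, to 0.08 in WT 3, where 37 were. By strain it lay between -0.09 and 0.08 in WT, between -0.04 and 0.05 in K467N and between -0.05 and 0.06 in K467R, so the strains overlapped. The box H/ACA and UtpA genes lay far apart within single libraries. In K467R 1 the box H/ACA median was 0.25 and the UtpA median -0.31. In K467N 2 they were -0.30 and 0.26. WT 3 (-0.20 and 0.14) and K467R 5 (0.09 and -0.21) showed the same spread at a smaller size within strains.

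**Figure D3:**
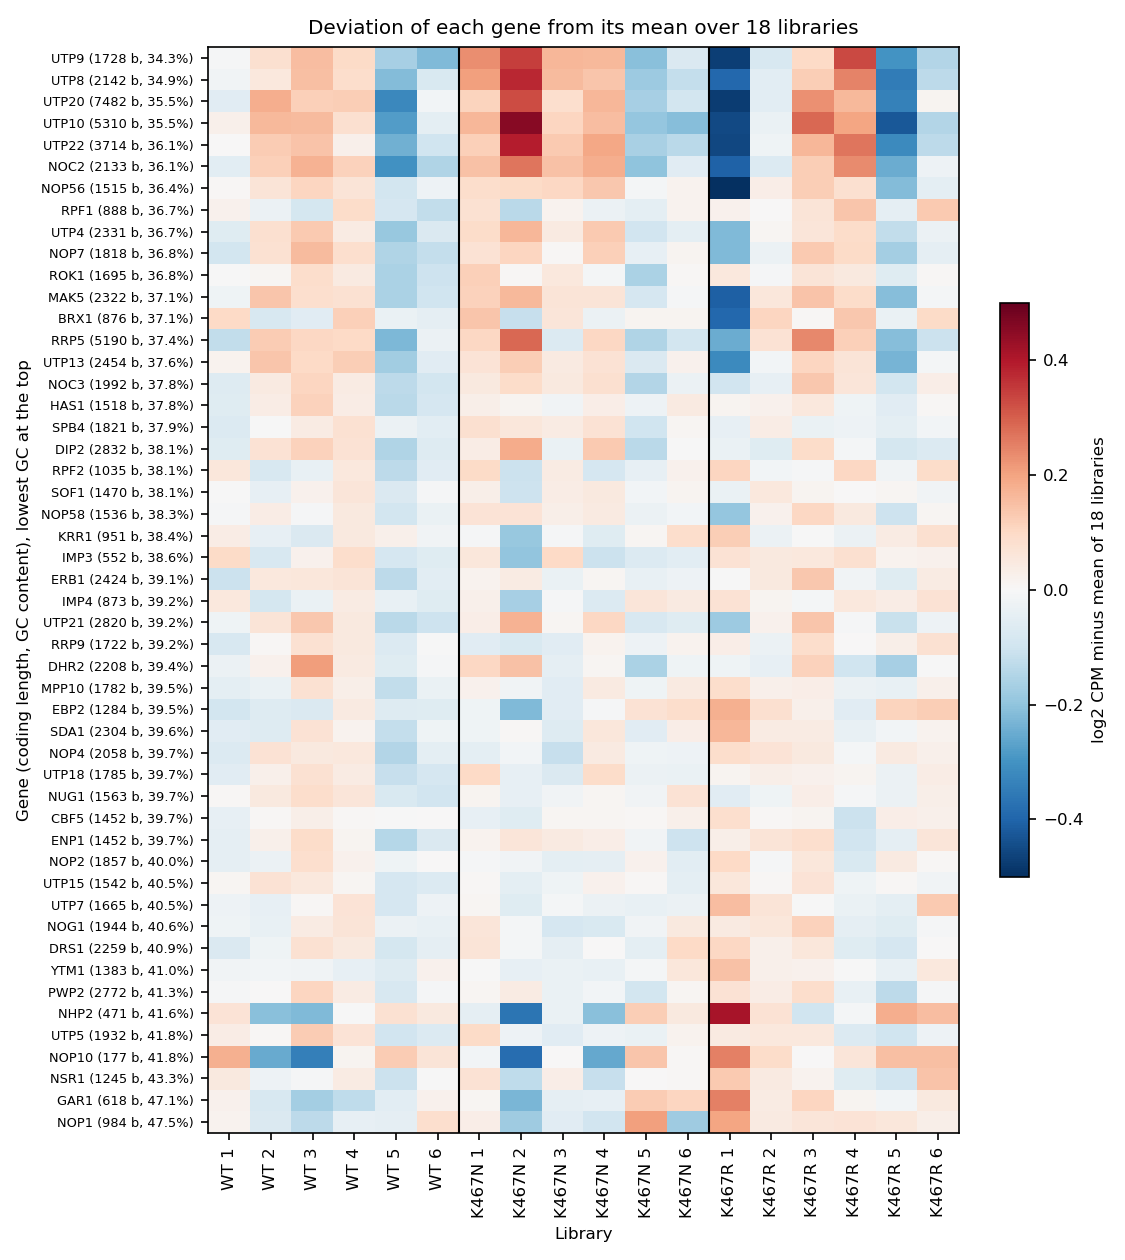
Deviation of each of the 50 genes (rows, with coding length in bases and GC content) in each of 18 libraries (columns, grouped by strain), as log2 CPM minus the gene's mean over all libraries. Rows run from the lowest GC content (UTP9, 34.3%) to the highest (NOP1, 47.5%), and in K467R 1 and K467N 2 the colours at the top and the bottom rows are opposite.

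These deviations moved with coding length and GC content over the whole transcriptome. In a linear fit over 5472 genes for each library, the slope on GC content, per 10 percentage points, ran from -0.24 in K467R 4 and -0.23 in K467N 2 to 0.52 in K467R 1. The slope on length in the same fit, per doubling, was 0.11 in K467N 2 and -0.04 in K467R 1. Length and GC content together held 47.3% of the variance of gene deviations in K467R 1 and 45.3% in K467N 2, and 3.06% in K467R 2, the lowest. The other libraries lay between, with 32.4% in WT 3, 30.5% in K467N 4 and 24.0% in WT 2. Leaving out K467R 1 and K467N 2 therefore does not clear these trends. The roles differ in both properties: box H/ACA genes had a median coding length of 544.5 bases and a median GC content of 41.7%, and UtpA genes 2037 bases and 36.1%. A middle stretch of 90 bases of coding sequence is printed for 1 gene of each role, with G and C in capitals. The 2 stretches are the ends of their roles, the highest of box H/ACA and the lowest of UtpA. Other stretches of these roles overlapped, with CBF5 at 36.7% and UTP15 at 37.8%. Over the whole coding sequence NHP2 holds 41.6% and UTP9 34.3%. NHP2 (bases 190 to 279 of the coding sequence) holds 45.6% G and C there, and UTP9 (bases 820 to 909, chromosome VIII, plus strand) 27.8%, both read from RefSeq R64.
NHP2 coding: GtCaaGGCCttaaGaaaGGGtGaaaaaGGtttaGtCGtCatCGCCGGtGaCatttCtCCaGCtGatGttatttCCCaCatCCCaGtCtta
UTP9 coding: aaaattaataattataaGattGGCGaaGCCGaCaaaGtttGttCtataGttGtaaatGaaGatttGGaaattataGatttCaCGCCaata

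**Figure D4:**
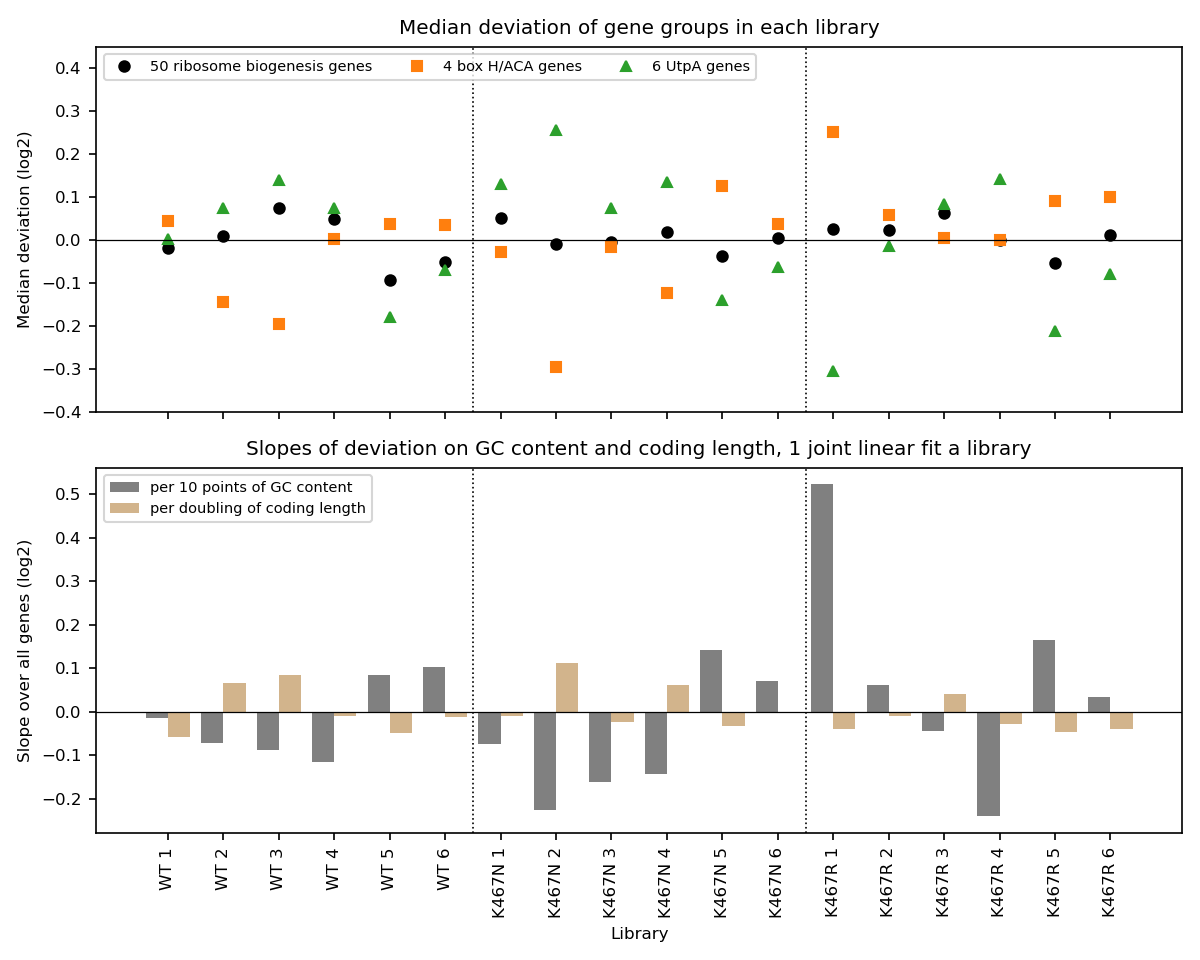
Top, median deviation (log2) of all 50 genes, of the 4 box H/ACA genes and of the 6 UtpA genes in each library. Bottom, slope of gene deviations on GC content (per 10 percentage points) and on coding length (per doubling) in a joint linear fit for each library; box H/ACA and UtpA medians are farthest apart in K467R 1 and K467N 2, where the slope on GC content is 0.52 and -0.23.

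The fold changes of the 50 genes followed the same properties. Across the 50 genes, which share libraries and are not replicates, the log2 fold change had a Pearson correlation with log2 coding length of 0.50 in K467N against WT, -0.70 in K467R against WT and 0.70 in K467N against K467R. With GC content it was -0.58, 0.66 and -0.71. Over 5472 genes these values were between -0.30 and 0.26. After the trend of each library in length and GC content was removed, an alternative chosen after seeing the data, the 6 correlations of the 50 genes lay between -0.21 and 0.14. The trends were fitted with strain differences kept in, so the step lowers these correlations by construction. It would also remove a strain difference that follows length or GC content. Without K467R 1 and K467N 2, and with no trend removed, the box H/ACA median was 0.10 in K467R against WT and -0.04 in K467N against K467R, and the UtpA median was -0.01 and 0.02. With the trends removed and all libraries kept, the box H/ACA median in K467R against WT was 0.04 in place of 0.14 and the UtpA median in K467N against K467R 0.01 in place of 0.12. NHP2 was at 0.09 ± 0.04 and NOP10 at 0.02 ± 0.02 in K467R against WT, GAR1 was at 0.05 ± 0.04 (unadjusted p = 0.269 in edgeR), and EBP2 was at 0.14 ± 0.05. UTP9 was at 0.05 ± 0.04 in K467N against WT.

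With the trends removed, 0 of 50 genes passed the test in each comparison (0.0707%, 0.0707% and 0.0177% of all genes). In K467R against WT 45 of 50 genes lay above 0 (48.8% of all genes), with a median of 0.04. An unadjusted p under 0.05 was found for 13 of them, all higher in K467R (10.5% of all genes had such a p, and 5.25% with a higher level in K467R). In K467N against K467R 9 of 50 lay above 0 (50.4% of all genes), with a median of -0.04. Here 12 of 50 reached an unadjusted p under 0.05, all lower in K467N (11.4% of all genes, and 5.35% with a lower level in K467N). In K467N against WT 32 of 50 lay above 0 (49.5% of all genes), 1 had an unadjusted p under 0.05 (GAR1, 2.76% of all genes), and the median was 0.004. The 50 genes share libraries and their levels are correlated, so these are not counts of separate observations. All 9 of the 60S assembly factors and all 8 other 40S factors were above 0 in K467R against WT. The smallest adjusted p of a member was 0.277 in K467R against WT and 0.262 between the mutants (edgeR, quasi-likelihood test). The libraries still overlapped, with a median deviation of the 50 genes of -0.07 to 0.04 in WT, -0.08 to 0.03 in K467N and -0.01 to 0.07 in K467R.

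Spread within strains differed widely between the genes before this step. The SD of log2 CPM between libraries of a strain was widest for UTP10 (0.248), UTP9 (0.221) and UTP20 (0.218), a large scaffold protein of the processome. It was narrowest for CBF5 (0.0433), YTM1, which acts in the Nop7-Erb1-Ytm1 complex of the pre-60S particle (0.0448), and SOF1, a processome protein (0.0459). The median over the 50 genes was 0.0779, beside 0.119 for all genes tested, and 37 of 50 were below the latter. Genes were not matched for level here, and the median gene of the 50 stood at percentile 76.2. UTP10 shows the width in CPM: it lay at 140, 176 and 190 in WT, at 146, 186 and 232 in K467N and at 124, 159 and 207 in K467R as lowest, median and highest level. Its highest level was in K467N 2 and its lowest in K467R 1. With the trends in length and GC content removed, the SD of UTP10 was 0.0838, the widest of the 50 was 0.0950 (NOP1), and the median was 0.0652 beside 0.0795 for all genes.

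**Figure D5:**
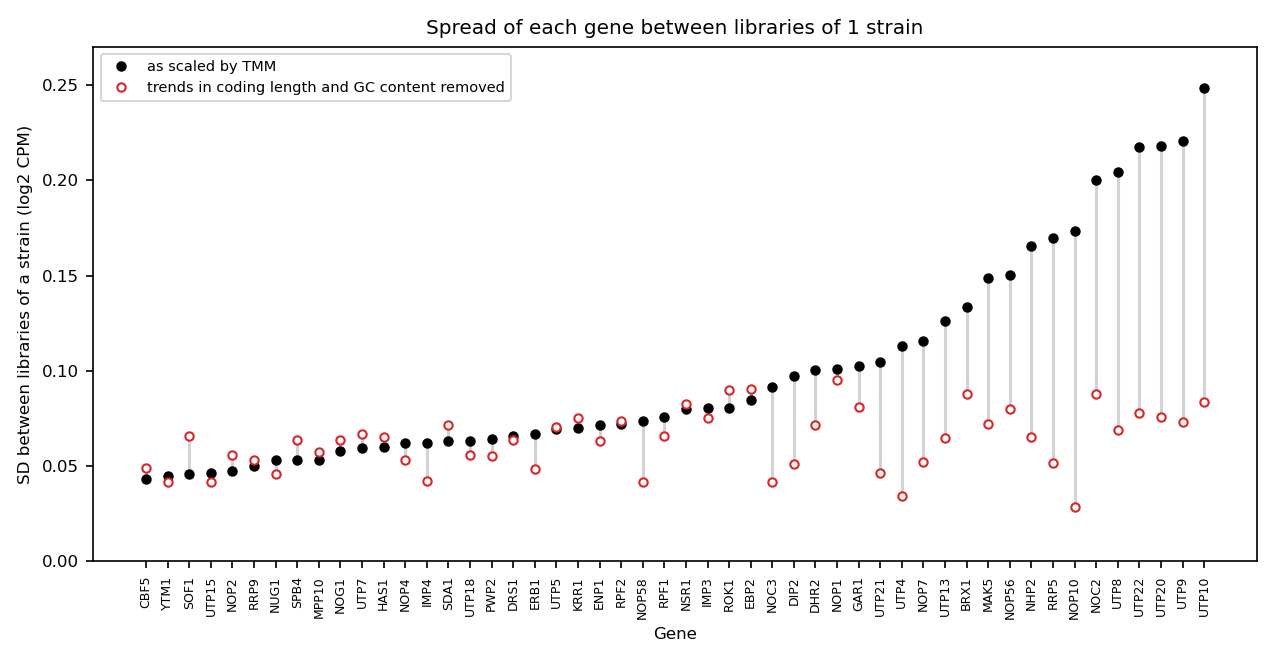
SD of log2 CPM between libraries of a strain for each of the 50 genes, ordered by its value, as scaled by TMM (filled) and after the trend of each library in coding length and GC content was removed (open). UTP10 moves from 0.248 to 0.0838, and genes at the left change little.

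Levels of the 50 genes were correlated between libraries of a strain. With strain means removed, the median Pearson correlation over their 1225 pairs was 0.29 across 18 libraries, and 72.0% of pairs were above 0, while the median over all pairs of tested genes was -0.0003. These are descriptions, since all pairs share the same libraries and their depth and base composition. The closest pair was UTP8 and UTP22 (0.98), and the most opposed was NHP2 and UTP21, a UtpB subunit (-0.92). The same pairs were at 0.70 and -0.54 with the trends in length and GC content removed. ERB1, the partner of Nop7 and Ytm1, had the highest median correlation with the other 49 genes (0.58), followed by the helicase genes ROK1 and DHR2 (both 0.53). NOP10 (-0.44), NHP2 (-0.35) and NOP1 (-0.20) had the lowest. With the trends in length and GC content removed these 3 were at 0.01, 0.24 and -0.004. Pairs of a box H/ACA and a UtpA gene had a median of -0.65. With the trends removed this became -0.02, and the median of all 1225 pairs became 0.33 with 77.3% above 0. Within roles it was then 0.57 in UtpA, 0.50 among 60S assembly factors and -0.03 in box H/ACA, where it was 0.36, 0.19 and 0.58 as scaled. The other roles then lay between 0.24 (other 40S factors) and 0.55 (helicases). With the trend in length alone removed, UtpA was at 0.02 and box H/ACA at 0.23, so the values within roles depended on the correction.

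The rest of the pathway was taken from 6 lists. None of their genes passed in any comparison, where 0.0707%, 0.0707% and 0.0177% of all genes did. The counts were 0 of 39 other 40S factors, 0 of 54 other 60S factors, 0 of 16 RNA polymerase I genes, 0 of 17 regulators of the pathway, 0 of 137 ribosomal protein genes and 0 of 25 stress-induced genes, which is what those shares give. At an unadjusted p under 0.05, the counts in that order were 0 in every list for K467N against WT (1.15% of all genes). They were 5, 3, 2, 0, 6 and 3 for K467R against WT (5.67% of all genes), and 6, 7, 2, 1, 29 and 3 for K467N against K467R (11.2% of all genes). Median log2 fold changes in K467R against WT were 0.03 for the other 40S factors and 0.03 for the other 60S factors, beside 0.02 for the 50 genes. Above 0 were 31 of 39, 35 of 54 and 29 of 50 genes, so the lean upward was not particular to the 50. In K467N against WT the medians of the other 40S and other 60S factors were 0.01 and 0.01, and both were below 0 without WT 5. BUD21, a processome subunit, was the other 40S factor of smallest p in K467R against WT (0.14 ± 0.05), and TMA16 the 60S factor (0.16 ± 0.07). RRN6, a subunit of the core factor of RNA polymerase I, was at 0.18 ± 0.05 in K467N against K467R. GCR1, an activator of glycolytic and ribosomal protein genes, was at 0.15 ± 0.06 there. Ribosomal protein genes had medians of -0.05 in K467N against WT, 0.10 in K467R against WT and -0.14 between the mutants, with 5, 136 and 1 of 137 above 0. With the trends in length and GC content removed, these medians were -0.004, 0.02 and -0.02, with 54, 87 and 41 of 137 above 0. Without K467N 2 the K467N against WT median was 0.004, above 0 in 82 genes. Many ribosomal protein genes have a near-identical paralog, so single values are uncertain. RPS9A was at 0.18 ± 0.06 in K467R against WT and at -0.20 ± 0.06 in K467N against K467R. Stress-induced genes had medians of -0.06, -0.06 and -0.004, the last of which was 0.004 with the trends removed, with YGP1 (-0.18 ± 0.06) and MSC1 (-0.17 ± 0.05) of smallest p in K467R against WT.

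Between libraries of a strain, the other assembly factors had a median correlation with the 50 genes of 0.23 (40S) and 0.22 (60S), which was 0.34 and 0.33 with the trends in length and GC content removed. RNA polymerase I genes were at 0.01 and 0.14. Ribosomal protein genes were at -0.35 as scaled and at 0.19 with the trends removed, so the sign of that relation depended on the correction. Regulators of the pathway were at 0.10 and -0.02, and stress-induced genes at -0.15 and -0.05. The part of base composition and length in these relations beyond the correction shown was not tested.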

How the data were processed

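Poly(A) RNA was measured in 18 libraries, 6 per strain, grouped by the genotype in the labels. The deposited files hold raw counts per gene, and the submitters' processing notes name HTSeq 0.6.1p1, STAR 2.5.3a and bcl2fastq 2.20.0.422 as the authors' tools. Which genome build, annotation release and strand setting the authors used is not given in the sources; for that reason coordinates are left out. Per the labels' protocols, 600 ng of total RNA went into each stranded library, with 12 PCR cycles. HTSeq's summary lines were left out of library sizes; gene counts were 75.3 to 76.2% of all entries, and reads with several alignments 18.3 to 19.6%. The 18 libraries were compared in pairs (153 pairs, with a chi-square of 2.52 to 90.5 for each degree of freedom, using genes whose counts in the pair summed to 20 or more), and none was a duplicate.

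The test was edgeR's (version 4.0.16, under R 4.3.3) on these counts (filterByExpr, which left 5660 genes, TMM, robust quasi-likelihood fit of 18 libraries with strain as the term, two-sided, Benjamini-Hochberg at 0.05), and steps were checked on simulated data. Standard errors are the log2 fold change over the root of F, and 95% intervals use edgeR's total degrees of freedom. Log2 CPM used a prior count of 2. Alternatives were other scalings, filters, DESeq2 1.42.0, limma-voom 3.58.1, the 12 libraries compared, 2 surrogate variables (sva 3.50.0), removal of per-library loess trends, and leaving out libraries. Removing the trends in length and GC content together, and all alternatives for the co-variation, were added after seeing the data. Of 7036 features, 5956 matched RefSeq R64 by locus tag, which gave names, coding lengths, GC content and promoters; copies were sought with BLAST 2.17.0. The genes and lists were chosen with earlier results of these data known. Members were named if they passed, were among the 5 of smallest p, the ends of their role, the 5 highest or lowest per kb, or the 3 ends of spread and co-variation; in each other list the 3 of smallest p could be named. Pairs, and UTP21 and the NOP1 spread, were picked after their values were seen. Counting error only is covered by depth, since reads carry no molecular identifiers. Figures were drawn with matplotlib 3.10.9 and pandas 2.3.3 in Python 3.11.15.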

Additional observations from a re-analysis of the deposited data

Results flagged for a closer look

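In each strain the highest and the lowest library of every gene were compared with the rest of its group of 6, as the gap to the nearest library divided by the range of the group, against Dixon's 95% critical value. This was done for 153 groups, and chance flags about 1 in 20, so the 4 found are fewer than that share gives. NOP1 in K467R 1 was a high library of its strain (967 CPM, the others 861 to 885 CPM), with a gap of 0.769 of the range. BRX1, a 60S assembly factor, was low in K467R 1 (263 CPM, the others 338 to 380 CPM), with a gap of 0.686. K467R 1 is the library with the steepest slope on GC content, and NOP1 has the highest GC content of the 50 genes. EBP2 in WT 4 was high (343 CPM, the others 311 to 319 CPM), with a gap of 0.760, and UTP18 in K467R 5 was low (150.2 CPM, the others 155 to 157 CPM), with a gap of 0.654. The part of length or base composition in these values was not tested. No library was flagged for the median deviation of the 50 genes.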

How the results depend on the processing

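In each comparison 0 of 50 genes passed in all 29 alternatives, where the smallest adjusted p was 0.931 in K467N against WT, 0.264 in K467R against WT and 0.218 in K467N against K467R. The median log2 fold change of the 50 genes kept its sign throughout: when 1 library was left out it ranged from 0.00215 to 0.0344, from 0.00460 to 0.0300 and from -0.0172 to -0.000436. For 39 named genes, 60, 59 and 42 of 1131 values differed in sign, and none passed. Over all genes, 2 passed in K467N against WT with a filter of 10 CPM in 6 libraries (4 in the analysis as reported). In K467R against WT 7 passed with DESeq2 and 8 with 2 surrogate variables (4 as reported), and in K467N against K467R 2 passed with DESeq2 (1 as reported). The cause was not tested. The median correlation between the 50 genes (0.287) was 0.251 with upper-quartile scaling, 0.333 with trends in length and GC content removed, 0.389 without both K467R 1 and K467N 2, and from 0.215 to 0.338 when 1 library was left out. No paired analysis was possible because the labels give the strains no shared replicate numbers. With 6 libraries per strain the median 95% interval of a member in K467N against WT was 0.10 log2 units to either side.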
